A study of Drosophila melanogaster with 40 samples.

Results

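Poly-A RNA was counted in heads of wild-type male Drosophila melanogaster that had been fed mitoQ or DMSO for 24 h before collection. The 2 acute groups held 7 libraries each, 14 of the 40 libraries in the series, and were chosen by their labels alone. All flies were 10 days old. The treated flies received 100 µM mitoQ and the control flies 0.2% DMSO. Each of these 14 libraries was made from a pool of 20 or 21 heads, so a value is a mean over a pool and over every cell type of the head. The study dissolved mitoQ in ethanol, and no group was fed ethanol alone, so mitoQ and its solvent cannot be told apart in this comparison. The labels number the replicates but do not say whether the pools came from separate cultures, so the p-values measure the spread between these pools.

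MitoQ is a ubiquinone joined to a lipophilic cation. The cation draws it into mitochondria, where the respiratory chain can reduce it to an antioxidant quinol. Ubiquinone carries electrons from complexes I and II to complex III, and complex IV passes them on to oxygen while complex V makes ATP. Superoxide that leaves the chain is removed by superoxide dismutases, and the resulting peroxide by catalase and by peroxiredoxins, which draw on thioredoxin. Keap1 holds back the transcription factor cnc, the fly counterpart of Nrf2, which drives genes for glutathione synthesis and detoxification. The comparison asks how the head transcriptome, and these gene groups within it, differed after a day on mitoQ.

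Total counts lay between 24494239 and 29228264 per library in the 14 libraries, and 13911 to 14323 features had at least 1 count. The libraries expressed the markers of a head. The rhodopsin gene ninaE had a count of at least 718083 in every library, and the photoreceptor, neuronal and glial markers all passed the filter on low counts. The 4 male accessory gland genes and the 3 testis genes did not pass it. Acute DMSO replicate 5 stood apart from the other 13 libraries. Its median Spearman correlation with them was 0.954, against 0.984 to 0.995 for the others, and its TMM scaling factor was 0.803, against 0.975 to 1.05. Its levels also fell with gene length: over genes with a mean log2 CPM above 3, log2 CPM deviations had a slope of -0.39 per doubling of length, against -0.13 to 0.12 in the other 13. Results that rest on it are given with and without it.

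No feature passed the test between acute mitoQ and acute DMSO. Of 11452 features tested with edgeR's quasi-likelihood test on the deposited counts, 0 (0%) passed an adjusted p of 0.05, and the smallest adjusted p was 0.798. At an unadjusted p under 0.05 there were 219 features (1.91%): 123 (1.07%) had a higher and 96 (0.838%) a lower estimate in mitoQ. DESeq2's Wald test on the same libraries called 1 feature and had 238 at an unadjusted p under 0.05. A limma fit after cyclic LOESS called 0 and had 190.

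The size of change that these libraries leave room for was read from the 95% interval of each log2 fold change. The median log2 fold change over all features was -0.01, and from the 5th to the 95th percentile the estimates ran from -0.31 to 0.19. The interval reached a median of 0.25 to either side on the log2 scale, a factor of 1.19. For 8998 features (78.6%) the whole interval lay inside a 1.5-fold change in either direction, and for 10575 (92.3%) inside a 2-fold change. Without acute DMSO replicate 5 these shares were 79.2% and 91.9%. The bound was widest at low abundance and differed little above a log2 CPM of 3. Abundant genes that varied between libraries, such as mt:CoI below, also had wide intervals. Among the 2834 features with a mean log2 CPM over 6, 93.4% were inside 1.5-fold, among the 5250 between 3 and 6 it was 92.2%, and among the 1261 at or below 0 it was 10.5%.

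The narrowest intervals among features over a log2 CPM of 5 belonged to lic, CycK, Snx6, Rab6 and CG3625. For lic, which encodes a MAP kinase kinase, the DMSO libraries lay at 36.8, 39.3 and 40.8 CPM (lowest, median and highest of 7) and the mitoQ libraries at 37.7, 38.95 and 39.7 CPM. Its fold was 0.997, with an interval of 0.945 to 1.05. Rab6, a small GTPase of the Golgi, had an interval of 0.944 to 1.06. CycK, Snx6 and CG3625 had intervals of 0.920 to 1.03, 0.957 to 1.07 and 0.920 to 1.03.

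**Figure D1:**
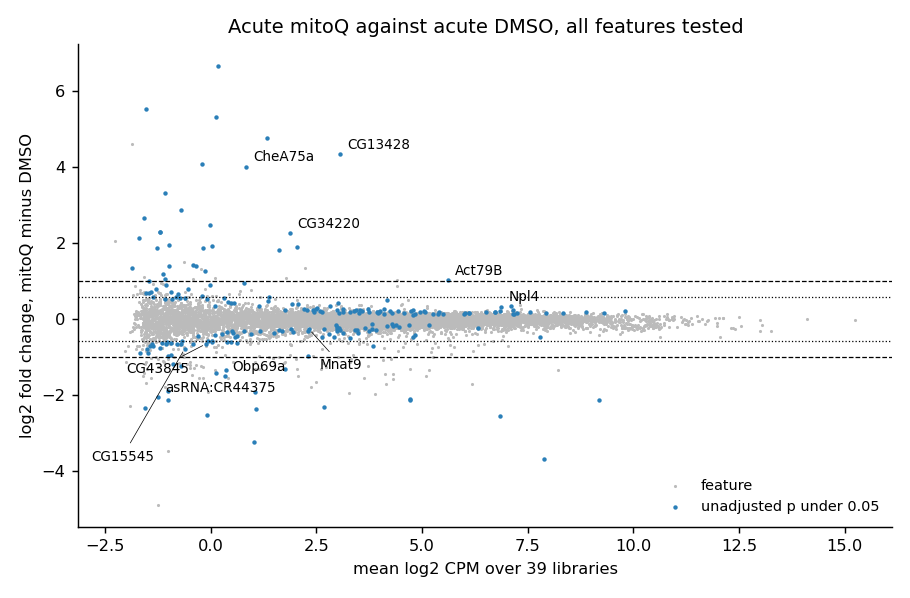
Log2 fold change of each of the 11452 features (acute mitoQ minus acute DMSO, vertical axis) against its mean log2 CPM (horizontal axis), with features at an unadjusted p under 0.05 in blue, the 5 features with the smallest p in each direction named, dotted lines at 1.5-fold and dashed lines at 2-fold. No feature passed an adjusted p of 0.05, and the features far from 0 were mostly of low abundance.

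The 5 features with the smallest p among those higher in mitoQ were CG13428, Act79B, CG34220, CheA75a and Npl4. None passed the adjusted threshold. Act79B encodes a muscle actin known from the tubular muscles of the adult, including those of the legs, and lies on chromosome arm 3L from 21985210 to 21987190 (BDGP6). Its DMSO libraries had 23.6, 26.1 and 35.0 CPM (lowest, median, highest), and its mitoQ libraries 26.3, 55.2 and 94.4 CPM. In 5 of the 7 mitoQ libraries Act79B was above every DMSO library, while mitoQ replicate 1 lay among the DMSO libraries. The log2 fold change was 1.03 ± 0.24 (SE), with an adjusted p of 0.798 (edgeR) and a fold interval of 1.46 to 2.88.

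CG13428, a gene known by its annotation number, showed a wider spread. It lies on chromosome arm 2R from 20539512 to 20540448. Its counts in DMSO replicates 1 to 7 were 0, 2, 14, 18, 4, 33 and 6, and in mitoQ replicates 1 to 7 they were 4, 152, 119, 105, 262, 582 and 296. In 6 of 7 mitoQ libraries it was above every DMSO library. The log2 fold change was 4.34 ± 1.01 (SE), with an adjusted p of 0.798 in edgeR and 0.0056 in DESeq2, where it was the 1 feature called.

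CheA75a belongs to a family of secreted or membrane-bound proteins, CheA and CheB, known from taste bristles of the fly, for some members those of the male front leg. It lies on 3L from 18252088 to 18252846. Counts in DMSO were 0, 1, 13, 1, 0, 6 and 0, and in mitoQ 0, 7, 53, 19, 85, 67 and 112. The log2 fold change was 4.01 ± 1.05 (SE, edgeR adjusted p = 0.999). The other members of the family were looked at after these values were seen, so they received no test as a group. CheB38b had a single count over the 7 DMSO libraries, in replicate 7, and counts of 1, 25, 4, 19, 41, 88 and 5 in the mitoQ libraries. CheA7a summed to 5 counts in DMSO and 97 in mitoQ, and CheB42b to 7 and 76.

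Of the 20 CheA and CheB genes in the table, 12 passed the filter on low counts. The 2 most abundant, CheB42c and CheA87a, had similar summed counts in the groups, 3358 in DMSO against 3579 in mitoQ for CheB42c and 1410 against 1525 for CheA87a. Over all 20 genes the sums were 583 to 930 counts per DMSO library and 694 to 1192 per mitoQ library, and the groups overlapped. Without the 2 most abundant, the other 18 genes together had 39 to 76 counts per DMSO library and 49 to 342 per mitoQ library. MitoQ replicate 1, with 49, was inside the DMSO range, and the other 6 mitoQ libraries, from 120 up, were above it. These 18 genes were set apart after values were seen and include CheA75a, picked for its small p. Their sums are therefore no separate support for a difference. Acute 2-AAPA, the other drug of the study, had 34 to 87 counts in 4 libraries and 247 and 346 in replicates 2 and 6. CG13428 was also high in those same 2 libraries, with counts of 239 and 326, and Act79B was high in 2-AAPA replicate 6, with 60.8 CPM. High levels of these genes were therefore present in some libraries of both drugs. Of the acute 2-AAPA libraries, replicate 6 was a pool of 13 heads and the others were pools of 19 or 20.

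Heads were parted from bodies with sieves, so genes of the leg and thorax were read beside these values. Antp and tsh, which give the trunk segments their identity, Dll, which specifies the far part of limbs, and ppk23, ppk25 and ppk29, channel subunits of pheromone-sensing taste neurons, all passed the filter, and Ubx did not. This list was written after the first results had been seen. The log2 fold change was 0.01 ± 0.07 (SE) for tsh, 0.00 ± 0.08 for Dll, 0.25 ± 0.17 for Antp, 0.16 ± 0.18 for ppk23, 0.11 ± 0.19 for ppk25 and -0.07 ± 0.17 for ppk29. Ubx had 0 to 7 counts per library in each group. Among muscle genes, Mhc, the muscle myosin heavy chain, had 0.14 ± 0.10 and Act88F, the flight muscle actin, -0.08 ± 0.25. With Strn-Mlck, the 3 muscle markers tested had a median of 0.13, and of 0.05 without acute DMSO replicate 5. The muscle markers fln and TpnC4 did not pass the filter. Counts per library were 0 to 6 in DMSO and 1 to 6 in mitoQ for fln, and 0 to 6 and 0 to 4 for TpnC4. Apart from Ubx, the genes of the leg and thorax list were present in every DMSO library, tsh at 11.5 to 14.9 CPM and Dll at 15.2 to 19.8 CPM. Against such a base, and with Ubx, fln and TpnC4 near 0, these values cannot show whether a few legs were carried over. The part of other tissue in the levels of Act79B and the Che genes was not tested.

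**Figure D2:**
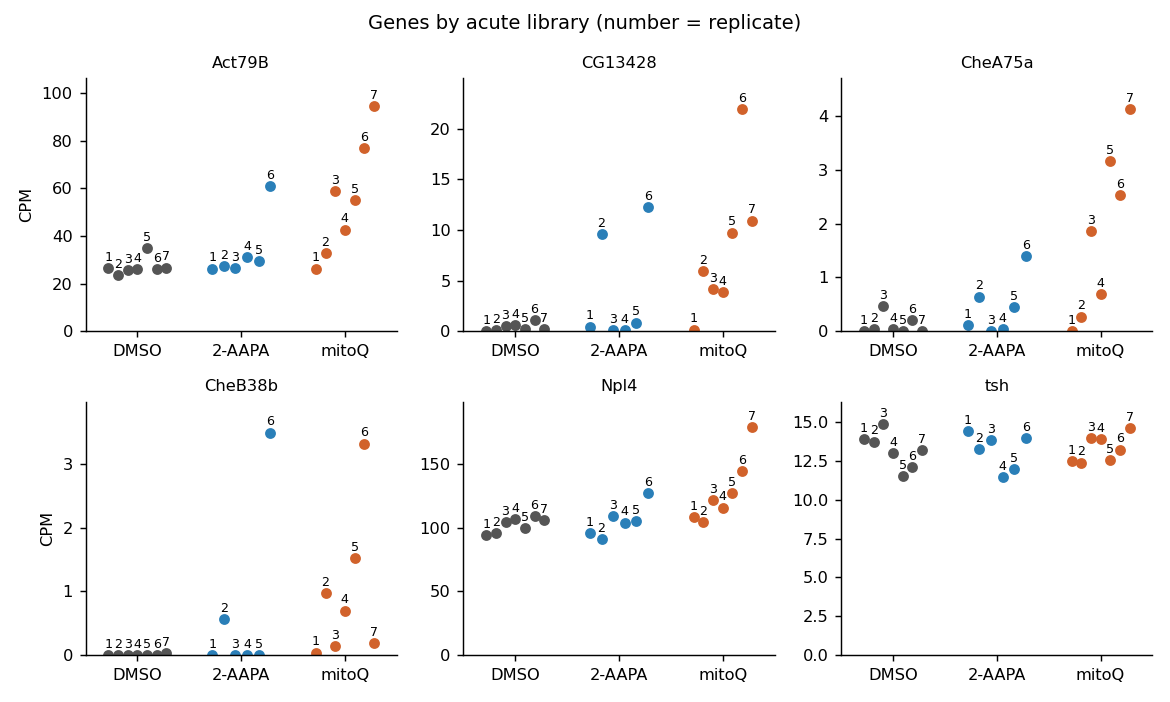
CPM (vertical axis, linear, from 0) of 6 genes in each acute library, by treatment (horizontal axis), with the replicate number above each point. Act79B, CG13428, CheA75a and CheB38b were higher in most mitoQ libraries and in 2-AAPA replicate 6, with mitoQ replicate 1 among the DMSO libraries. The trunk identity gene tsh was present in every library, and its groups overlapped throughout.

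Npl4, an adaptor of the TER94 segregase in protein degradation, was the most abundant of the 5. Its DMSO libraries had 94.6, 104 and 109 CPM and its mitoQ libraries 105, 122 and 179 CPM, with 5 mitoQ libraries above every DMSO library. The log2 fold change was 0.33 ± 0.09 (SE, edgeR adjusted p = 0.999), with a fold interval of 1.11 to 1.44. CG34220 rested on 1 library. Its count was 1648 in mitoQ replicate 1, while the other 6 mitoQ libraries had 44 to 79 and the DMSO libraries 44 to 71.

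The 5 features with the smallest p among those lower in mitoQ were asRNA:CR44375, CG43845, CG15545, Mnat9 and Obp69a, and none passed the adjusted threshold. The antisense RNA CR44375 rested on 1 control library, with a count of 85 in DMSO replicate 1, 2 to 13 in the other DMSO libraries and 1 to 8 in mitoQ. CG43845 had 21 to 43 counts in DMSO and 14 to 26 in mitoQ, a log2 fold change of -0.65 ± 0.18 (SE). Mnat9, a microtubule-associated acetyltransferase, had 4.77, 5.54 and 6.92 CPM in DMSO and 3.87, 4.90 and 5.17 CPM in mitoQ, a log2 fold change of -0.26 ± 0.09. Obp69a, an odorant-binding protein, had counts of 10 to 136 in DMSO and 5 to 27 in mitoQ, and the groups overlapped. Several of these genes overlap another gene in the annotation: asRNA:CR44375 lies opposite Cdk4, Mnat9 opposite Med, Obp69a opposite CG32104, Npl4 opposite CG5071 and CG5079, and CG43845 opposite Itpr and on the strand of Nmdar1, while CG34220 shares its strand with oys. The strand setting of the counting is not given in the sources used here, so reads of such pairs cannot be told apart.

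The nuclear genes of the respiratory chain had log2 fold changes below 0 as a body in the fit of all libraries, and this rested on 1 control library. Of 69 subunit genes of complexes I to V, 68 passed the filter, and 0 passed the adjusted test against 0% of all features. Of the 68, 1 (UQCR-11) had an unadjusted p under 0.05, against 1.91% of all features. Estimates were below 0 for 62 of the 68, with a median log2 fold change of -0.16, while 53.4% of all features were below 0 with a median of -0.01. Without acute DMSO replicate 5, 12 of the 68 were below 0 and the median was 0.02. The direction of the chain as a whole therefore turned when 1 of the 14 libraries was left out.

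The same was seen complex by complex. Complex I, the NADH dehydrogenase, had a median of -0.17 with 30 of 33 members below 0, and 0.02 with 8 of 33 below 0 without acute DMSO replicate 5. Complex III had -0.12 and 0.03, complex IV, cytochrome c oxidase, -0.19 and 0.03, and complex V, the ATP synthase, -0.16 and 0.02. Complex II, with 4 members, had -0.07 and 0.03. Leaving out any other of the 14 libraries kept the complex I median between -0.23 and -0.12 and the complex IV median between -0.25 and -0.14.

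Scores by library show where the shift lay. A list's score is the mean deviation of its members' log2 CPM from their mean over the 14 libraries. For complex I, the score was 0.90 in acute DMSO replicate 5, -0.23 to -0.02 in the other 6 DMSO libraries and -0.22 to 0.28 in the mitoQ libraries. For complex IV it was 1.02 in DMSO replicate 5, -0.33 to 0.06 in the others and -0.30 to 0.30 in mitoQ. For complex V it was 0.80, -0.26 to 0.06 and -0.26 to 0.24. The mitoQ libraries overlapped the other 6 DMSO libraries in each case, and mitoQ replicate 5 was the highest of its group.

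**Figure D3:**
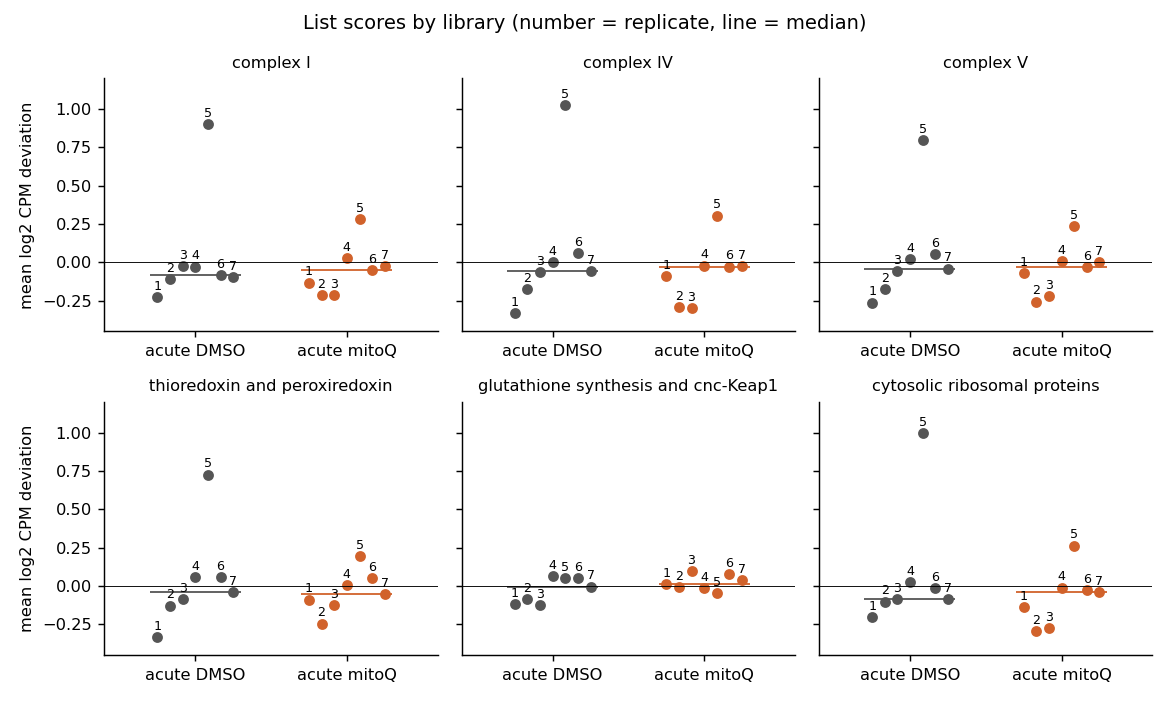
Mean deviation of log2 CPM over the tested members of 6 gene lists (vertical axis) in each acute DMSO and acute mitoQ library, with the replicate number above each point and a line at the group's median. Acute DMSO replicate 5 lies far above the other libraries for complexes I, IV and V, thioredoxin and peroxiredoxin genes and cytosolic ribosomal proteins (0.73 to 1.02), and not for glutathione synthesis and cnc-Keap1 (0.05).

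Gene length moved with the shift. In the fit of all libraries, the median log2 fold change was -0.12 among the 561 features of at most 500 bases and -0.13 among the 1637 from 500 to 1000 bases, and 0.04 among the 2176 longer than 4000 bases. Without acute DMSO replicate 5 the order of these medians turned, to 0.03, 0.01 and -0.04. The respiratory chain genes are short, with a median length of 844 bases for complex I, 729 for complex IV and 918 for complex V. With the length trend of each library as a covariate, an alternative chosen after seeing the data, the medians were -0.04 for complex I, -0.04 for complex IV and -0.04 for complex V. Ribosomal proteins, another body of short genes, moved alike: the 80 cytosolic ones had a median of -0.19 with 79 below 0, and 0.02 with 15 below 0 without DMSO replicate 5, and the 71 mitochondrial ones -0.18 and -0.01. Other lists of short genes moved by other amounts. The mitochondrial genome (median length 789 bases) had medians of -0.04 and, without that library, 0.01, and -0.28 with the length covariate. Glutathione S-transferases (890 bases) had -0.05, 0.05 and 0.03 in the same order. Antimicrobial peptides (399 bases) had -0.51, 0.13 and -0.17. The part of gene length in the shift was not tested.

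Single subunits show the bound for the chain. ND-75, the large iron-sulfur subunit of complex I, had 376, 463 and 497 CPM in DMSO and 415, 449 and 483 CPM in mitoQ, a fold of 1.004 with an interval of 0.883 to 1.14. SdhA, the flavoprotein of complex II, had 255, 378 and 392 CPM against 373, 389 and 423 CPM, with an interval of 0.992 to 1.197. Its lowest DMSO value was that of replicate 5. RFeSP, the Rieske protein of complex III, had 291, 329 and 606 CPM against 278, 338 and 415 CPM, with an interval of 0.775 to 1.09. The groups overlapped for each of these subunits. COX4 of complex IV had an interval of 0.768 to 1.10 and ATPsynbeta, the catalytic subunit of complex V, 0.925 to 1.22. Over the chain, 61 of 68 intervals lay inside a 1.5-fold change, and 65 of 68 without DMSO replicate 5.

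UQCR-11 of complex III, the member with the lowest estimate, differed in another way. Its CPM was 47.6 and 90.4 in DMSO replicates 1 and 2, 1.13 to 7.86 in the other 5 DMSO libraries and 1.77 to 8.81 in mitoQ, and its log2 fold change was -2.09 ± 1.01 (SE, edgeR adjusted p = 0.999). RpL38, the cytosolic ribosomal protein with the lowest estimate, had 267 and 448 CPM in the same DMSO replicates 1 and 2, and 11.7 to 25.6 CPM in the other DMSO libraries. These estimates rest on 2 control libraries.

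The mitochondrial genome set wider bounds. All 15 of its genes in the table passed the filter, 0 passed the adjusted test, and 0 of the 15 intervals lay inside a 1.5-fold change. The median log2 fold change was -0.04, with 10 below 0, and 0.01 without acute DMSO replicate 5. The cytochrome c oxidase subunit gene mt:CoI had 74.0, 87.5 and 798 CPM in DMSO and 66.4, 83.6 and 99.0 CPM in mitoQ, with a fold interval of 0.130 to 1.21. The highest value was that of DMSO replicate 2, with a count of 21921. The cytochrome b gene mt:Cyt-b had 18.7, 34.2 and 53.4 CPM against 22.6, 33.6 and 48.3 CPM, with an interval of 0.402 to 2.35. These RNAs reached the libraries through poly-A selection, and mitochondrial genes took 0.0444% to 0.211% of the counts.

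Ubiquinone, whose analogue the flies were fed, is made by the Coq enzymes. The 9 genes of its synthesis had a median log2 fold change of 0.01, from -0.16 for Coq3 to 0.08 for Coq9, and all 9 intervals lay inside a 1.5-fold change. Coq2, which joins the ring to its isoprenoid tail, had 10.1, 10.9 and 11.8 CPM in DMSO and 10.7, 11.6 and 11.97 CPM in mitoQ, with a fold interval of 0.939 to 1.14. The dehydrogenases that feed ubiquinone outside complexes I and II, 6 genes, had a median of -0.04, and 0.05 without DMSO replicate 5. Among them Gpo1, the mitochondrial glycerophosphate oxidase, had a fold interval of 0.894 to 1.15.

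The redox genes stayed within narrow bounds. Of 40 enzymes and regulators in 3 lists (superoxide and peroxide enzymes, thioredoxin and peroxiredoxin genes, and glutathione synthesis with cnc and Keap1), 35 passed the filter and 0 passed the adjusted test, and the intervals of all 35 lay inside a 1.5-fold change. Without acute DMSO replicate 5, 34 lay inside 1.5-fold and 35 inside 2-fold. Of the 35, 1 (Keap1) had an unadjusted p under 0.05, against 1.91% of all features. The first 2 lists had medians of -0.09 and -0.09, with 6 of 8 and 15 of 15 below 0, and medians of 0.06 and 0.03 without DMSO replicate 5, with 1 and 3 below 0. The third had 0.03 and 0.06.

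Among the enzymes that act on superoxide, Sod1, the cytosolic dismutase, had 314, 406 and 673 CPM in DMSO and 352, 401 and 483 CPM in mitoQ, with a fold interval of 0.787 to 1.10. Sod2, the mitochondrial dismutase, had 106, 131 and 237 CPM against 112, 131 and 154 CPM, with an interval of 0.777 to 1.10. The highest DMSO value of both was that of replicate 5, and the group medians differed little. Cat, the catalase, had 226, 258 and 335 CPM against 254, 272 and 300 CPM, with an interval of 0.922 to 1.18. Among the peroxide-removing proteins of mitochondria, Prx3 had an interval of 0.829 to 1.06 and Prx5 one of 0.743 to 1.08. Trxr1, the thioredoxin reductase that also serves glutathione in flies, had 235, 268 and 364 CPM against 249, 267 and 296 CPM, with an interval of 0.854 to 1.10.

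In the cnc and Keap1 group, Keap1 had 15.9, 21.0 and 22.7 CPM in DMSO and 20.0, 22.3 and 25.6 CPM in mitoQ. Its log2 fold change was 0.16 ± 0.08 (SE, edgeR adjusted p = 0.999), with a fold interval of 1.01 to 1.25, and 0.972 to 1.18 without acute DMSO replicate 5. The transcription factor cnc had 74.0, 150 and 160 CPM against 108, 165 and 205 CPM, with an interval of 0.905 to 1.45. Both genes had their lowest DMSO value in replicate 5. Gclc and Gclm, the subunits of the ligase that starts glutathione synthesis, had intervals of 0.914 to 1.18 and 0.861 to 1.202. GstD1, a glutathione S-transferase widely read as a target of cnc, had 323, 377 and 565 CPM against 314, 377 and 450 CPM, with an interval of 0.836 to 1.12.

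**Figure D4:**
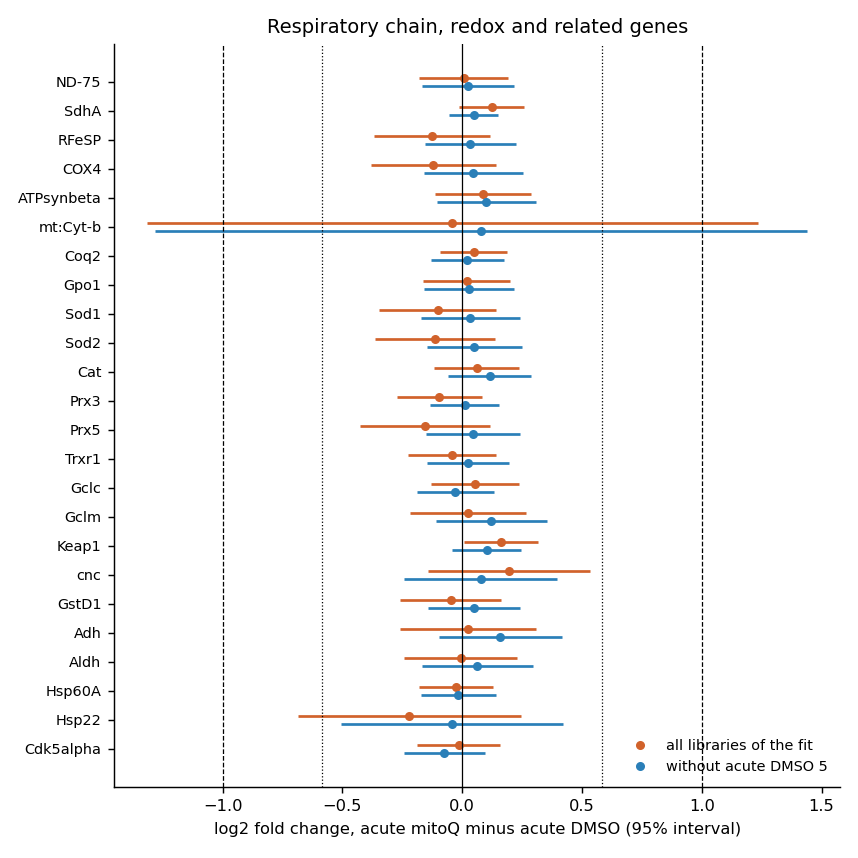
Log2 fold change (acute mitoQ minus acute DMSO, horizontal axis) with its 95% interval for 24 respiratory chain, redox and related genes, with all libraries of the fit in orange and without acute DMSO replicate 5 in blue, dotted lines at 1.5-fold and dashed lines at 2-fold. All intervals shown but those of mt:Cyt-b and Hsp22 lie inside 1.5-fold in both fits, and estimates for RFeSP, COX4, Sod1, Sod2, Prx3, Prx5 and Trxr1 lie below 0 in the first and above 0 in the second. The gene mt:CoI, whose interval is not inside 1.5-fold, is not shown.

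The large detoxification families were measured across many genes. Of 33 glutathione S-transferases tested, 20 were below 0 with a median of -0.05, and 6 were below 0 with a median of 0.05 without acute DMSO replicate 5. The 78 cytochrome P450 genes had a median of 0.03 and the 24 UDP-glycosyltransferases 0.06, and without that library 0.04 and 0.08. Bounds were wider than for the redox lists. Intervals lay inside 1.5-fold for 28 of 33 glutathione S-transferases, 57 of 78 P450 genes and 15 of 24 UDP-glycosyltransferases, against 78.6% of all features. Inside 2-fold lay 31, 74 and 20, against 92.3%. At an unadjusted p under 0.05, 1 P450, Cyp313a4, was higher (log2 fold change 0.43 ± 0.18, SE) and 1 transferase, Ugt37A3, was lower (-0.96 ± 0.47), against 1.07% higher and 0.838% lower over all features, and neither passed the adjusted threshold (edgeR).

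Genes that handle alcohol were read because the solvent differed between the groups. The 10 genes of this list had a median log2 fold change of 0.02, from -0.13 for sni to 0.10 for AcCoAS, and all 10 intervals lay inside a 1.5-fold change. Adh, the alcohol dehydrogenase, had 2892, 4718 and 7678 CPM in DMSO and 4110, 5068 and 5754 CPM in mitoQ, with a fold interval of 0.836 to 1.24. Aldh, which oxidises the resulting aldehyde, had an interval of 0.846 to 1.17.

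Stress genes gave small estimates as well. The 18 heat shock genes had a median of -0.01 and the 18 tested ATF4 and stress targets 0.01. Of the heat shock genes, 15 had intervals inside 1.5-fold and 18 inside 2-fold, and of the stress targets 13 and 15. Hsp60A, the mitochondrial chaperonin, had a fold interval of 0.884 to 1.09, and Hsp22, a small heat shock protein of mitochondria, 36.1, 82.5 and 151 CPM in DMSO against 53.1, 72.4 and 116 CPM in mitoQ, with an interval of 0.622 to 1.18. The 12 genes of the TCA cycle had a median of 0.00 and the 12 of glycolysis -0.01, with all intervals of both lists inside 1.5-fold. Cdk5 and its activator Cdk5alpha, whose loss is used as a model of neurodegeneration in flies, had intervals of 0.904 to 1.10 and 0.877 to 1.12.

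Antimicrobial peptide genes had the lowest median of the lists, -0.51, with 12 of 13 tested members below 0, and it too rested on acute DMSO replicate 5. The median was 0.13 with 5 below 0 without that library. AttA, an attacin, had a count of 1007 in DMSO replicate 5 and 139 to 260 in the other DMSO libraries, against 102 to 547 in mitoQ. Mtk, metchnikowin, had 1144 in DMSO replicate 5, 69 to 181 in the others and 45 to 610 in mitoQ. The highest mitoQ value of both was that of replicate 7. Of the 13 intervals, 0 lay inside 1.5-fold and 2 inside 2-fold.

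**Figure D5:**
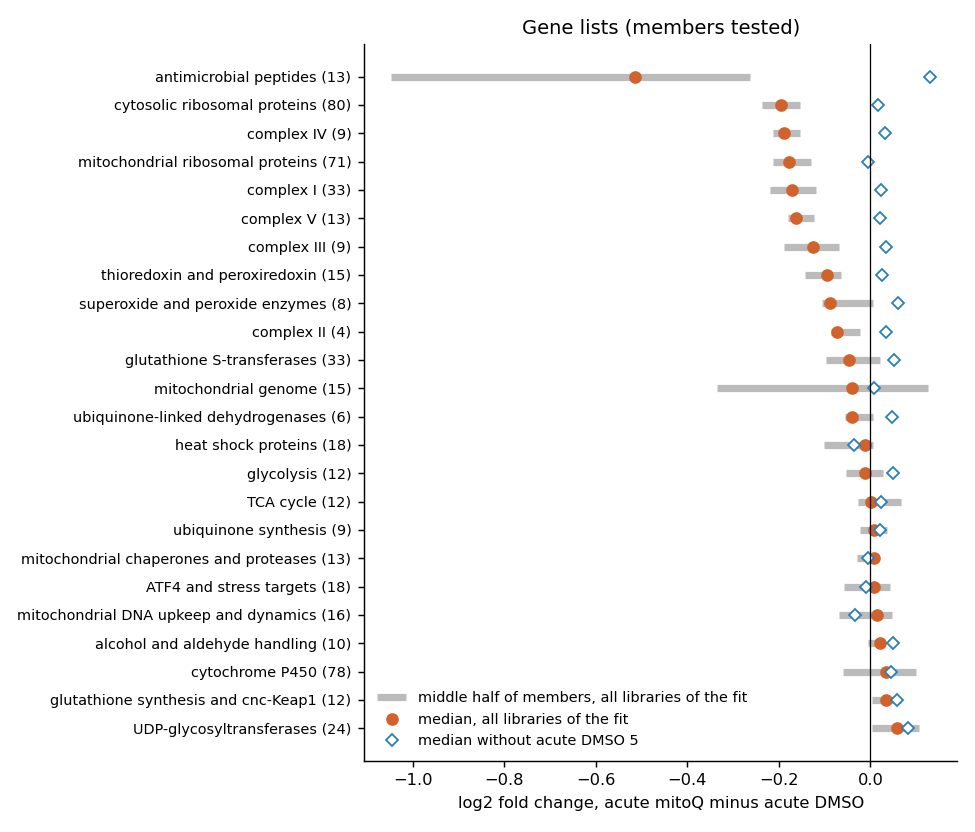
Median log2 fold change (horizontal axis, acute mitoQ minus acute DMSO) of each gene list with more than 2 members tested, with all libraries of the fit (orange, grey bar from the lower to the upper quartile of the members) and without acute DMSO replicate 5 (blue diamonds). The antimicrobial peptide, ribosomal protein and respiratory complex lists lie below 0 with all libraries (-0.51 to -0.07) and between -0.01 and 0.13 without that library.

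Markers of the cell types of the head were read beside these lists. The 6 photoreceptor markers had a median log2 fold change of -0.02, the 4 glial markers 0.07, the 4 neuronal markers -0.15 and the 4 fat body markers -0.02, and none passed the adjusted test. The neuronal marker nSyb, a synaptic vesicle protein, had a log2 fold change of -0.16 ± 0.11 (SE) and elav, a neuronal RNA-binding protein, -0.14 ± 0.23. The neuronal score was -0.30 to 0.55 in DMSO and -0.22 to 0.20 in mitoQ. DMSO replicates 1 and 2, with 0.52 and 0.55, were above every mitoQ library, and DMSO replicates 4 and 6, with -0.30 and -0.27, were below every one. In pools of heads, fewer cells of a type and less RNA per cell cannot be told apart.

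The effect of mitoQ was compared between 24 h and 10 days of feeding, with 6 chronic mitoQ and 6 chronic DMSO libraries. No feature passed the test of the difference (0 of 11452, 0%, edgeR, smallest adjusted p 0.653, 194 at an unadjusted p under 0.05), and DESeq2 called 1, CG18180 (DESeq2 adjusted p = 0.0166), which was named after its values were seen. Its edgeR log2 fold change was -3.24 ± 1.29 (SE) after 24 h and 4.70 ± 1.53 after 10 days. The log2 fold change of CG13428 was 4.34 after 24 h and -1.07 after 10 days, and that of Act79B was 1.03 and -0.33. For complex I the list medians were -0.17 after 24 h and -0.12 after 10 days, and for complex IV -0.19 and -0.18. Without acute DMSO replicate 5 the medians after 24 h were 0.02 and 0.03, of the opposite sign to those after 10 days. The study lists 2-AAPA as an inhibitor of thioredoxin reductase and glutathione reductase. Between acute mitoQ and acute 2-AAPA, 0 of 11452 features (0%) passed the test, with 264 at an unadjusted p under 0.05 and a smallest adjusted p of 0.118 (edgeR).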

How the data were processed

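Per the labels and the study's methods, the authors prepared directional poly-A libraries, ran the nf-core pipeline for mapping against BDGP6 and counted reads with featureCounts (genes) and TEcount (transposable element families). The deposited values are raw counts for 17784 features, of which 17558 are genes and 228 are listed without a symbol, beside each gene's length in bases. Versions of the counting tools are not given in the sources used here.

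Counts were tested in R 4.3.3 with edgeR 4.0.16 (filterByExpr on the 6 groups, TMM, robust glmQLFit, glmQLFTest) on 39 libraries, with chronic DMSO replicate 7 left out, since the study removed 1 outlying chronic DMSO library that it does not name. P-values were adjusted by Benjamini-Hochberg over 11452 features. The standard error was the size of the log2 fold change over the square root of F, and 95% intervals used the t quantile. CPM values are scaled by TMM, and log2 CPM has a prior count of 2. Totals of 24494239 to 29228264 counts per library leave counting error small for all but rare features. Gene coordinates are from Ensembl's annotation of BDGP6. The procedure was tested on simulated counts drawn independently for each feature and library. They held no outlying library and no trend with gene length, so that test does not cover such cases.

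The comparison, gene lists and rules were chosen with earlier results of these data known. Named genes were the 5 with the smallest p in each direction, the 2 ends of each list, a fixed set of redox, respiratory and related genes, and the 5 narrowest intervals over a log2 CPM of 5. The CheA and CheB family, leg and thorax genes, AttA, Mtk and CG18180 were added after values were seen. Alternatives used DESeq2 1.42.0, limma 3.58.1 (a pedestal of 2), other libraries, filters and covariates, a replicate block and the removal of each library.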

Additional observations from a re-analysis of the deposited data

Results flagged for a closer look

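Each group of 7 libraries was searched for 1 library whose gap to the nearest other exceeds Dixon's critical value, in 126 searches over library measures, list scores and genes. Chance alone would single out about 1 in 20, and 27 were found, 23 of them acute DMSO replicate 5. The searches are not independent, since lists and some of their own members were searched in the same libraries. The count of finds therefore cannot be set against chance.

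Acute DMSO replicate 5 had a length slope of -0.39. Its list scores were 0.90 for complex I, 1.02 for complex IV, 0.80 for complex V, 0.49 for superoxide and peroxide enzymes, 0.73 for thioredoxin and peroxiredoxin genes, 2.35 for antimicrobial peptides, 0.53 for glutathione S-transferases, 0.85 for mitochondrial ribosomal proteins, 0.998 for cytosolic ribosomal proteins and -0.30 for the Cdk5 genes. Among single genes, its log2 CPM was above the other DMSO libraries for Act79B (5.13), Sod2 (7.89), Prx3 (6.63), Prx5 (9.19), GstD1 (9.14), RFeSP (9.24), COX4 (9.89) and Aldh (10.15), and below them for Gclc (6.02), Keap1 (3.9998), cnc (6.21) and SdhA (7.99). The genes above are shorter than those below, which range from 2750 bases for SdhA to 9178 for cnc.

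Acute DMSO replicate 2 had 0.211% of its counts on mitochondrial genes, against 0.0737% at the lowest of its group, and a log2 CPM of 9.64 for mt:CoI. Acute mitoQ replicate 1 had a log2 CPM of -2.16 for CG13428, far below its group, and of 5.95 for CG34220, far above it.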

How the results depend on the processing

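Acute DMSO replicate 5 decided the direction of 16 of 25 list medians, and 22 of 82 named genes changed sign without it. Without any 1 of the 14 libraries, 0 features were called, the features at an unadjusted p under 0.05 numbered 150 (without acute mitoQ replicate 3) to 418 (without acute mitoQ replicate 5), and 75.7% to 79.2% of features were inside 1.5-fold and 91.1% to 91.9% inside 2-fold. With no filter on low counts 550 features had an unadjusted p under 0.05. DESeq2 called 1 feature in the comparison and 1 in the difference between chronic and acute feeding, CG13428 and CG18180 respectively. With the replicate block, 0 features were called and 190 had an unadjusted p under 0.05. Same-numbered libraries correlated at over 0.1 in 5 of 7 pairs (-0.14 to 0.50), and 3 of 7 correlated best with their own number, so the numbers were not taken as pairs. Under the 9 other tools, filters, scalings and sets of libraries tried, the complex I median stayed between -0.17 and -0.13. That of the superoxide and peroxide enzymes stayed between -0.09 and -0.06. The length trend as a covariate, not among those 9, moved these medians to -0.04 and 0.01, and 6 of 25 list medians changed sign. The cause of these shifts was not tested. At low abundance the bounds were wider: 61.7% of features at or below a log2 CPM of 0 were inside 2-fold, against 98.3% of those over 6.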

Other observations

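The genes l(3)mbn and CG14205, outside the rule and chosen after their values were seen, were high in few of the 14 libraries. l(3)mbn had counts of 264, 197 and 253 in mitoQ replicates 1, 3 and 7, 1 to 6 in the other 4 mitoQ libraries and 2 to 6 in DMSO, and 413 in acute 2-AAPA replicate 1. CG14205 had 127, 145 and 147 in mitoQ replicates 4, 5 and 7 and 0 to 2 in the others, with 0 to 5 in DMSO. The tubulin gene alphaTub85E, also chosen after its values were seen, had 2 to 11 counts in DMSO and 9 to 23 in mitoQ, a log2 fold change of 1.19 ± 0.34 (SE, edgeR adjusted p = 0.999). ND-AGGG of complex I varied within both groups, from 3.97 to 143 CPM in DMSO and from 11.2 to 76.1 CPM in mitoQ.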
